A study of Arabidopsis thaliana with 10 samples.

Results

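The 44 nuclear genes described here encode the light-harvesting antenna proteins and the nuclear-encoded subunits of the photosystems of Arabidopsis thaliana. They were picked by gene identifier, as named families, out of 32833 genes in the deposited tables, by a rule that uses no measured value but was written with earlier results of these data known. They comprised 15 LHCB genes (LHCB1.1 to LHCB7), 6 LHCA genes (LHCA1 to LHCA6), 12 genes of photosystem I subunits (PSAD1 to PSAO) and 11 genes of photosystem II subunits (PSBO1 to PSBY, including PSBTN). RNA-seq libraries had been made from whole 10-day-old Col-0 wild-type seedlings grown in long days, to find genes that respond to jasmonic acid (JA). The ctrl seedlings received no treatment, and the 2hJA seedlings spent 2 h in a closed container with gaseous methyl jasmonate. There were 2 experiments, Set1 with 2 ctrl and 2 2hJA libraries and Set2 with 3 and 3. All plants carried the same genotype, no mutant was included, and the time of day of harvest is not given in the sources used here. A whole seedling mixes cotyledons, leaves, hypocotyl and roots, so fewer green cells and less RNA per green cell could not be told apart in these libraries.

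Light-harvesting proteins bind chlorophyll and carotenoids in the thylakoid membrane and pass excitation energy to the reaction centres. LHCB1, LHCB2 and LHCB3 build the main trimeric antenna of photosystem II, LHCB4 to LHCB6 are its minor antenna proteins (CP29, CP26 and CP24), and LHCA proteins form the antenna of photosystem I. The reaction centre cores are encoded in the plastid genome, whereas antenna proteins and many peripheral subunits are encoded in the nucleus, where their transcription depends on light, the circadian clock and the GLK transcription factors.

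Several antenna genes are close copies, which sets how well their transcripts could be separated. LHCB1.1 (AT1G29920), LHCB1.2 (AT1G29910) and LHCB1.3 (AT1G29930) lie side by side on chromosome 1, at 10474656 to 10475969, 10472280 to 10473502 and 10477885 to 10479114 (TAIR10.1), and each has 1 exon. LHCB1.1 was identical to LHCB1.2 over 95.6% and to LHCB1.3 over 96.1% of their 804 coding bases. The first 90 coding bases of the copies, from RefSeq (TAIR10.1), are shown with capitals at the 9 positions that differ among them, out of 47 such positions over the whole coding sequence.
LHCB1.1: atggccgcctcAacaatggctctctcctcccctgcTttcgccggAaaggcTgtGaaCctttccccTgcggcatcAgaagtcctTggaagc
LHCB1.2: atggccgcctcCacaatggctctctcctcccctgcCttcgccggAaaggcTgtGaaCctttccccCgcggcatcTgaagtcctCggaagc
LHCB1.3: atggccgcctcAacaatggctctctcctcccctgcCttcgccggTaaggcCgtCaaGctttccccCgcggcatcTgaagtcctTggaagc
LHCB1.4 and LHCB1.5, also single-exon neighbours on chromosome 2, were 92.5% identical. LHCB2.1 and LHCB2.2 were 92.9% identical, against 84.5% for LHCB2.1 and LHCB2.3. A stretch of 75 bases shared with another gene was present in 8 of the 44 genes (LHCB1.1 to LHCB1.5, LHCB2.1, LHCB2.2 and LHCA2), and in the other 36 there was none. For 18 genes the deposited count was not whole (by more than 0.005) in at least 1 library, which marks reads divided between genes. The split of counts within LHCB1 and between LHCB2.1 and LHCB2.2 is therefore uncertain. Of the 75-base stretches of each transcript, 3.7% (LHCB1.2) to 10.4% (LHCB1.1) were shared in the LHCB1 genes. The shared part was 15.3% in LHCB2.1 and 19.1% in LHCB2.2. In 11 genes the count was not whole in every library. Among these were LHCB2.3, LHCB3, LHCA5, PSAE1 and PSAH2, which share no such stretch, so their counts carry some of this uncertainty too. In addition, 16 of the genes overlapped a gene on the other strand and PSAD2 and PSBP1 overlapped one on their own strand. Whether strand was used in the counting is not given in the sources used here.

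The libraries differed in ways that the treatment did not explain. Total expected counts were 12147941 to 17200426 in Set1 and 6333822 to 7774547 in Set2. Ribosomal RNA took 11.6% and 1.32% of counts in Set1_ctrl replicates 1 and 2 and 8.98% and 0.653% in Set1_2hJA replicates 1 and 2. In Set2 it took 0.0857% to 0.179%. Plastid transcripts took 13.8% and 1.87% of counts in Set1_ctrl replicates 1 and 2 and 11.4% and 0.684% in Set1_2hJA replicates 1 and 2. In Set2 they took 0.121% to 0.377%, except 2.61% in Set2_2hJA replicate 1. That library also stood apart for 3671 nuclear protein-coding genes without a count in any Set1 library, of which it had counts in 82.1%, against 11.8% to 43.2% in the other Set2 libraries. The treatment was visible in both sets: MYC2, a central transcription factor of JA signalling, rose by 3.69 ± 0.32 (SE) on the log2 scale in Set1 (adjusted p = 0.00117) and by 3.52 ± 0.44 in Set2 (adjusted p = 0.00229). Adjusted p-values here and throughout come from the quasi-likelihood test of edgeR, adjusted over all genes tested by the Benjamini-Hochberg method, and a gene was called when its adjusted p was at most 0.05.

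The 44 genes made up a large part of the nuclear transcripts. Their share of nuclear counts, ribosomal RNA left out, was 18.4% and 18.2% in the Set1_ctrl libraries and 12.8% and 12.6% in the Set1_2hJA libraries. In Set2_ctrl replicates 1, 2 and 3 it was 11.3%, 10.6% and 8.85%, and in Set2_2hJA replicates 1, 2 and 3 it was 7.65%, 10.2% and 8.97%. The groups of Set1 were apart, whereas those of Set2 overlapped and only Set2_2hJA replicate 1 lay below all ctrl libraries. The Wilson 95% interval of each share extended at most 0.024 percentage points to either side and covers counting error only. The 15 LHCB genes alone took 10.12% and 10.19% of nuclear counts in Set1_ctrl and 6.49% and 6.32% in Set1_2hJA. In Set2 they took 5.82%, 5.38% and 4.51% in ctrl against 3.76%, 5.26% and 4.61% in 2hJA.

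**Figure D1:**
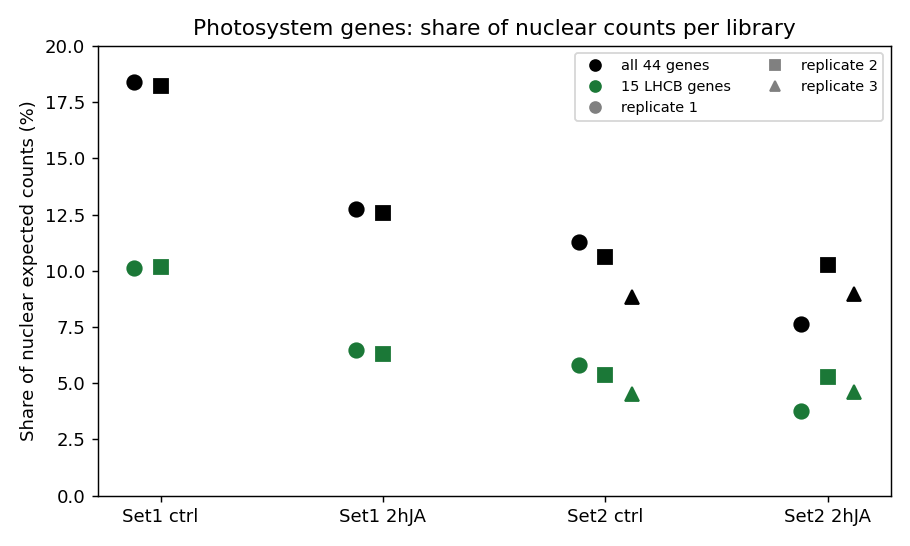
Share of the counts of nuclear genes, ribosomal RNA left out (percent, vertical axis), in the 4 groups, 1 symbol per library. Black symbols are the 44 photosystem genes and green symbols the 15 LHCB genes. The Set1_ctrl libraries lie at 18.4% and 18.2% and the Set1_2hJA libraries at 12.8% and 12.6%, while the Set2 groups overlap.

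Levels of different genes were compared in TPM, the unit of transcript abundance that corrects for transcript length. LHCB1.3, a main trimer protein gene, stood highest, at 14560 ± 1578 TPM (SD, n = 3) in Set2_ctrl and 21160 ± 5668 (n = 2) in Set1_ctrl. Its lowest Set2_ctrl library, 13170, was above every other member in these libraries. It was followed in Set2_ctrl by LHCB1.1 with 7449 ± 611.5 and LHCB1.5 with 7264 ± 1017, which did not differ beyond their spread. LHCA4, of the photosystem I antenna, reached 6104 ± 1014 TPM, LHCB3 6006 ± 1046 and LHCB1.2 5548 ± 1261, again within each other's spread. Among the photosystem II subunits PSBR, a small subunit near the oxygen-evolving complex, had the highest mean over all libraries. In Set2_ctrl it reached 4266 ± 510.8 TPM, within the spread of PSBP1, of the oxygen-evolving complex, at 4307 ± 620.2. Among photosystem I subunits PSAO, which takes part in docking the mobile antenna, had the highest mean over all libraries. In Set2_ctrl PSAO was at 3206 ± 440.6 TPM, below PSAL at 3421 ± 356 and PSAG at 3323 ± 451.1, all within each other's spread. The low end was held by LHCB7, a rarely expressed antenna relative, with 20.03 ± 3.61 TPM in Set2_ctrl, by LHCB4.3 with 59.6 ± 18.3, by LHCA6 with 118 ± 17.7 and by LHCA5 with 261 ± 28.2. LHCA5 and LHCA6 encode minor photosystem I antenna proteins that link the NADH dehydrogenase-like complex to photosystem I. Apart from these means over all libraries, levels were ordered within a group, because the TPM of the Set1 replicates moved with their plastid and ribosomal RNA shares.

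In Set1, antenna genes were lower after 2 h of JA, with the steepest falls among LHCB2 and LHCB4.2. Of the 44 genes, 13 were called lower and 0 higher, and 5 were lower by at least 2-fold. Over all 20098 genes tested, 2.96% were called lower and 3.62% higher, and 2.2% were lower by at least 2-fold. The calls comprised 10 of 15 LHCB and 2 of 6 LHCA genes, against 1 of 12 photosystem I and 0 of 11 photosystem II subunit genes. The difference between subgroups was not tested. In all, 42 of the 44 fold changes were below 0, 35 of them at an unadjusted p under 0.05. Over all 20098 genes 52.6% were below 0, and 1999 genes were below 0 at that p. The median of the 44 was -0.51 on the log2 scale against -0.02 for all genes tested. The subgroup medians were -0.63 for LHCB, -0.51 for LHCA, -0.47 for photosystem I and -0.39 for photosystem II. Every 2hJA library lay below every ctrl library for 41 of the 44 genes, a pattern that 23.8% of all genes showed. Scaling bore on the number of calls. With library totals alone in place of TMM factors 2 members were called lower (LHCB2.2 and LHCB2.3), against 1.03% of all genes. The median relative to all genes was -0.50 in place of -0.48.

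**Figure D2:**
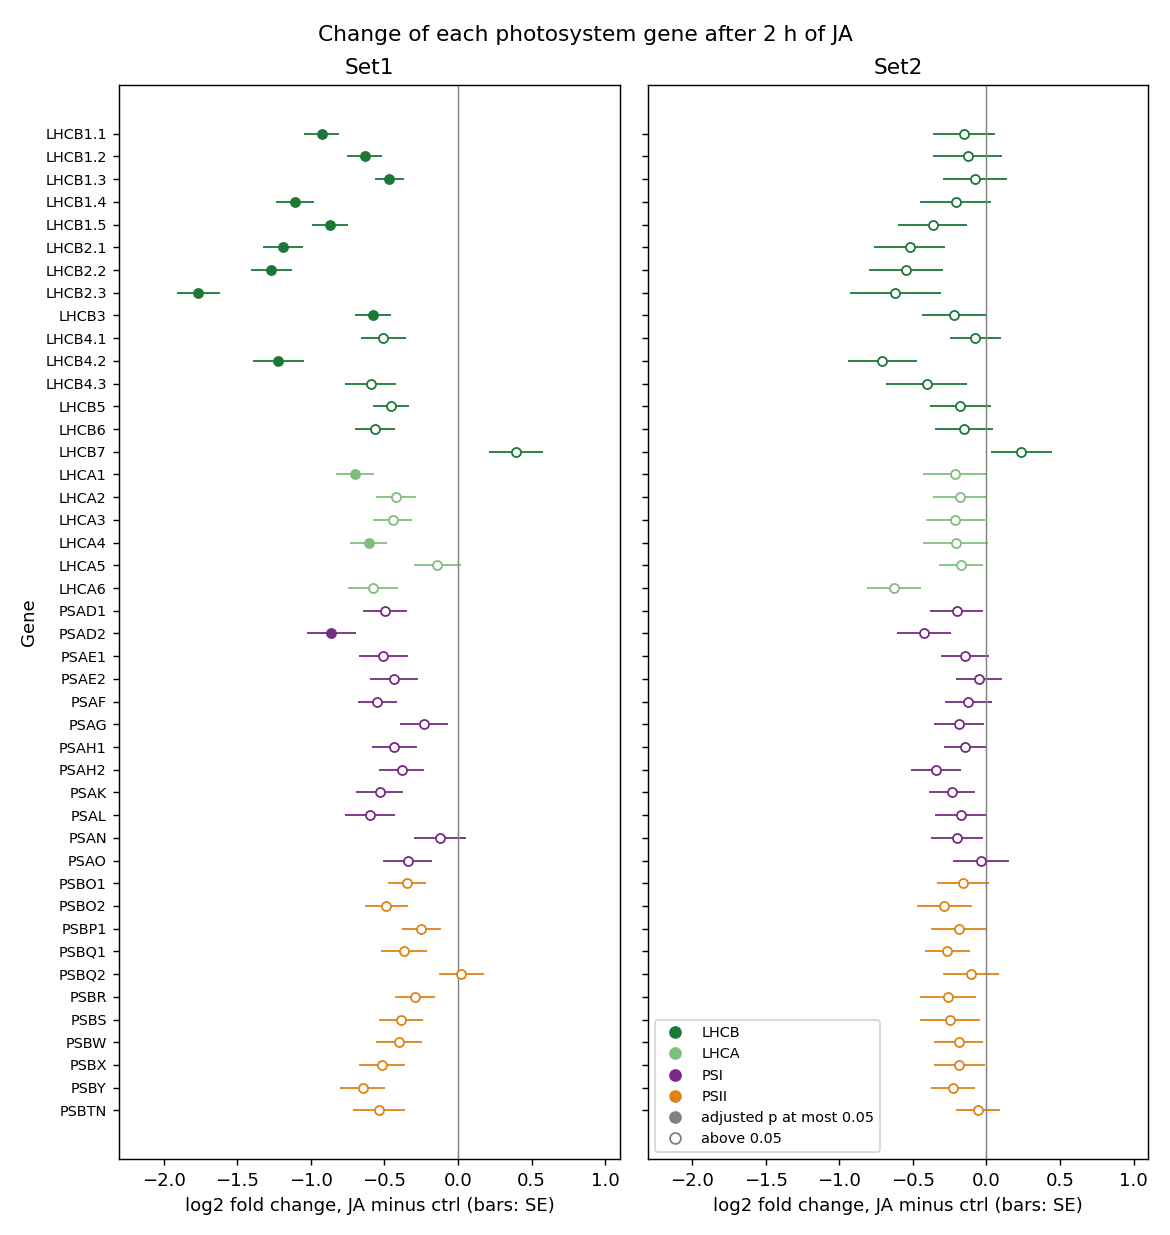
Log2 fold change, JA minus ctrl, of each of the 44 genes in Set1 (left) and Set2 (right), with standard errors as bars and filled points for adjusted p at most 0.05. In Set1 13 points are filled, 10 of them LHCB genes, and LHCB2.3 lies lowest at -1.76, while in Set2 none is filled and 43 of 44 lie below 0.

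LHCB2.3 (AT3G27690, chromosome 3, 10255906 to 10257489, plus strand, 2 exons) had the lowest combined fold change of the antenna genes. It had 3281 and 3188 CPM (counts scaled to a common library total) in Set1_ctrl and 963.1 and 969.9 CPM in Set1_2hJA. In Set2_ctrl it had 1270, 1350 and 885.5 CPM and in Set2_2hJA 425.4, 1123 and 743.4 CPM. The groups were far apart in Set1 and overlapped in Set2, where the lowest value was that of Set2_2hJA replicate 1. The gene fell 3.39-fold in Set1, a log2 fold change of -1.76 ± 0.15 (SE, adjusted p = 0.001). In Set2 the value was -0.62 ± 0.31 (adjusted p = 0.342). LHCB2 proteins are phosphorylated in state transitions, in which part of the trimeric antenna is moved between the photosystems.

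LHCB2.1, LHCB2.2, LHCB4.2, the LHCB1 genes other than LHCB1.3, and further on LHCB3, LHCA1, PSAD1 and PSBS are described as well, chosen after their values were seen. LHCB2.1 (AT2G05100, chromosome 2, 1822990 to 1824480, minus strand) had 4555 and 4804 CPM in Set1_ctrl and 2076 and 2081 in Set1_2hJA. In Set2 it had 2689, 2635 and 2106 CPM in ctrl against 1113, 2190 and 1893 in 2hJA. In Set1 its groups were apart, with a fall of 1.19 ± 0.14 on the log2 scale (adjusted p = 0.00372), and in Set2 they overlapped, with a fold change of -0.52 ± 0.24 (adjusted p = 0.297). LHCB2.2 (AT2G05070, chromosome 2, 1799234 to 1800472, minus strand) gave nearly the same picture, falling by 1.27 ± 0.14 in Set1 (adjusted p = 0.00305) against -0.55 ± 0.25 in Set2 (adjusted p = 0.289). LHCB4.2 (AT3G08940), 1 of 3 genes for CP29, lies on chromosome 3 at 2717557 to 2718923 (plus strand) and had 3124 and 3684 CPM in Set1_ctrl and 1336 and 1625 in Set1_2hJA. It had 1421, 1473 and 1163 CPM in Set2_ctrl and 523.5, 1036 and 936.9 in Set2_2hJA. LHCB4.2 was thus 1 of the few members whose groups were apart in both sets, with a fall of 1.22 ± 0.17 in Set1 (adjusted p = 0.00901) and a fold change of -0.71 ± 0.24 in Set2 (adjusted p = 0.142).

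The stretches before the annotated start of these genes are shown because LHCB2.1, LHCB2.2, LHCB2.3 and LHCB4.2 moved most, with LHCB1.4 and, as the antenna gene with the highest fold change, LHCB7. Each is 120 bases from RefSeq (TAIR10.1), 5′ to 3′ on the gene's strand and ending at the base before the start, and capitals mark matches to the motifs CACGTG (G-box), CCAATC (named for GLK factors), GATAAG (I-box), AAAATATCT (evening element) and AAAAATCT or AACAATCT (CCA1-binding), read on both strands.
LHCB2.1 (chr2:1824481-1824600, minus strand): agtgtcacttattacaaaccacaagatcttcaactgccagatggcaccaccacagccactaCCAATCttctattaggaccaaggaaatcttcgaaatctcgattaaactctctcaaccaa
LHCB2.2 (chr2:1800473-1800592, minus strand): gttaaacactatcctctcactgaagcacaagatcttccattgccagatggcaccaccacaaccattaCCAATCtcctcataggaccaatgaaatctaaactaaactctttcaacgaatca
LHCB2.3 (chr3:10255786-10255905, plus strand): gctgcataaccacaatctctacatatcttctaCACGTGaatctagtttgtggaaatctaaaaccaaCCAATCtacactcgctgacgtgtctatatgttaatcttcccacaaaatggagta
LHCB4.2 (chr3:2717437-2717556, plus strand): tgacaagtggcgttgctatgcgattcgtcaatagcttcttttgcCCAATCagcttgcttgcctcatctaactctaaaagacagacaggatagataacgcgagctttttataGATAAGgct
LHCB1.4 (chr2:14524487-14524606, plus strand): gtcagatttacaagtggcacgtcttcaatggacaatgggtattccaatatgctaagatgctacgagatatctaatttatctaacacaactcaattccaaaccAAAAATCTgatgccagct
LHCB7 (chr1:28728878-28728997, plus strand): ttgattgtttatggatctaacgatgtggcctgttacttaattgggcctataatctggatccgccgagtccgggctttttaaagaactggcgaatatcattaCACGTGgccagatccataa
CCAATC began 59, 53 and 54 bases before the start in LHCB2.1, LHCB2.2 and LHCB2.3 and 76 bases before it in LHCB4.2. LHCB2.3 also had CACGTG at 88 bases and LHCB7 at 19 bases, and LHCB1.4 had AAAAATCT at 18 bases. None of the marked matches overlapped another. In the window from 250 bases before to 50 after the start, CCAATC was present in 15 of the 44 genes (34.1%) against 12.3% of 27443 nuclear protein-coding genes. CACGTG was present in 16 (36.4%) against 7.7%, GATAAG in 18 (40.9%) against 14.6%, the CCA1-binding letters in 7 (15.9%) against 9.9% and AAAATATCT in 1 (2.3%) against 2.8%. By subgroup CCAATC was in 53.3% of LHCB and 8.3% of photosystem I genes, CACGTG in 63.6% of photosystem II genes and GATAAG in 66.7% of photosystem I genes. Of the 13 genes called lower in Set1, 8 had CCAATC and 2 had CACGTG, against 7 and 14 of the 31 others. These are counts of letters, with no test, and near copies share sequence, so the promoters are not independent.

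All 5 LHCB1 genes were also called lower in Set1, by unequal amounts. LHCB1.4 (AT2G34430, chromosome 2, 14524607 to 14525918, plus strand) had 6459 and 6348 CPM in Set1_ctrl and 2987 and 3048 in Set1_2hJA. It had 1444, 1237 and 1058 CPM in Set2_ctrl and 680.1, 1299 and 1273 in Set2_2hJA. In Set1 the groups were apart and it fell 2.15-fold, a log2 fold change of -1.10 ± 0.13 (adjusted p = 0.00396), whereas in Set2 2 of the 3 2hJA libraries lay within the ctrl range. LHCB1.1 had 11620 and 11240 CPM in Set1_ctrl against 6362 and 5827 in Set1_2hJA, and it fell by 0.93 ± 0.12 (adjusted p = 0.00634). In Set2 it had 6434, 6076 and 5241 CPM in ctrl and 4002, 6283 and 5772 in 2hJA, so that only replicate 1 of 2hJA lay below the ctrl libraries. LHCB1.5 fell by 0.87 ± 0.12 in Set1 (adjusted p = 0.00876) and LHCB1.2 by 0.63 ± 0.12 (adjusted p = 0.0257), the latter not called without Set1_ctrl replicate 2 or Set1_2hJA replicate 2. LHCB1.3, the gene with the highest level, had the smallest fall. It had 25520 and 24130 CPM in Set1_ctrl and 18510 and 17910 in Set1_2hJA, a log2 fold change of -0.47 ± 0.10 (adjusted p = 0.0407). This call was lost in 3 of 4 fits with 1 Set1 library left out, with library totals, by DESeq2 and by limma. In Set2_ctrl it had 12180, 10690 and 9467 CPM and in Set2_2hJA 8313, 11630 and 10810 CPM, with overlapping groups and a fold change of -0.08 ± 0.22 (adjusted p = 0.895). Since these copies share reads, their sum is the firmer quantity. With near copies summed into 33 families, 6 families were called lower in Set1, against 2.92% of all genes. LHCB3 was the other LHCB gene called, with a fall of 0.58 ± 0.12 (adjusted p = 0.0381), and was not called in any of the 4 fits with 1 Set1 library left out.

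LHCB7 (AT1G76570, chromosome 1, 28728998 to 28730851, plus strand, 6 exons) was the 1 antenna gene with a fold change above 0 in both sets. It had 14.3 and 17.2 CPM in Set1_ctrl and 21.3 and 20.6 in Set1_2hJA, and in Set2 15.9, 16.8 and 11.3 CPM in ctrl against 18.7, 20.4 and 12.7 in 2hJA. The 2hJA libraries lay above the ctrl libraries in Set1 and overlapped them in Set2. The fold change did not pass the test in either set, with 0.39 ± 0.18 (adjusted p = 0.299) and 0.24 ± 0.21 (adjusted p = 0.611).

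**Figure D3:**
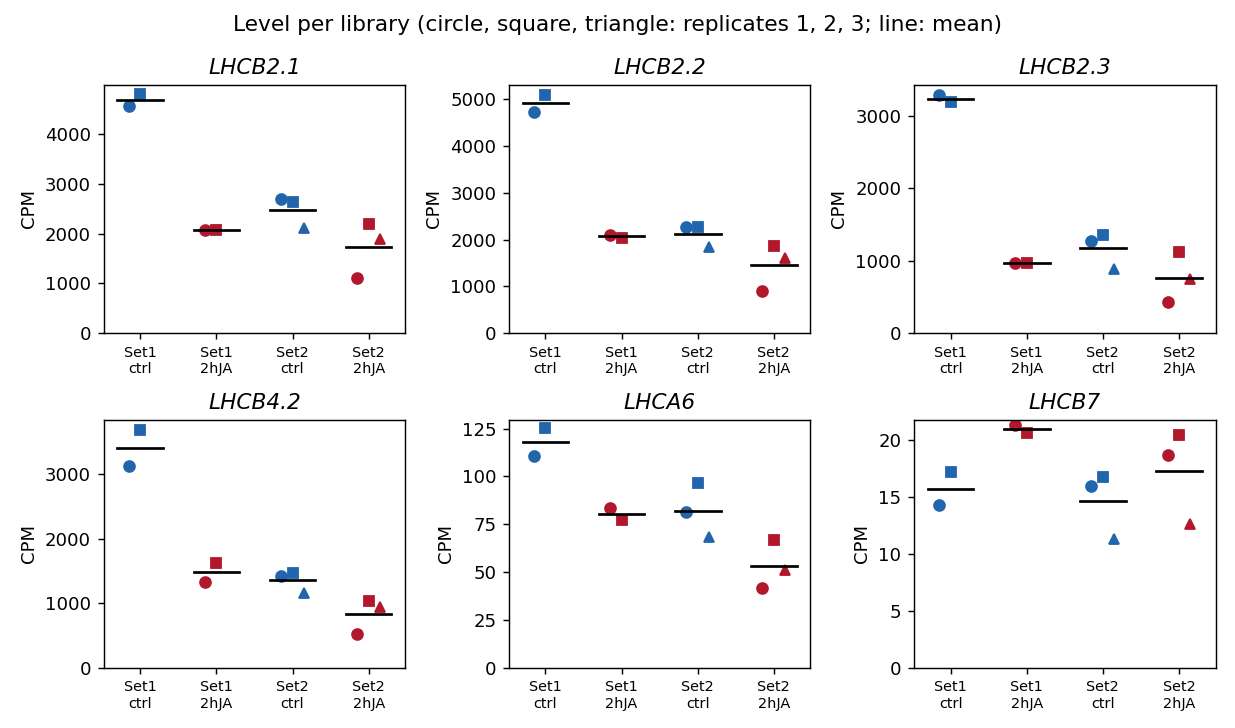
Level in CPM (vertical axes, each from 0) of LHCB2.1, LHCB2.2, LHCB2.3, LHCB4.2, LHCA6 and LHCB7 in every library, with lines at the group means (blue ctrl, red 2hJA; circle, square and triangle for replicates 1, 2 and 3). In Set2 the circle of 2hJA, replicate 1, is the lowest 2hJA value for all genes shown except LHCB7.

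Among the photosystem I antenna genes LHCA4 and LHCA1 were called lower in Set1. LHCA4 (AT3G47470, chromosome 3, 17493343 to 17495033) had 8379 and 8830 CPM in Set1_ctrl and 5495 and 5981 in Set1_2hJA, with a fall of 0.60 ± 0.13 (adjusted p = 0.037). This call was lost in 4 of 4 fits with 1 Set1 library left out, at fold changes of -0.67 to -0.51, with library totals and by limma. In Set2 it had 5567, 4958 and 3816 CPM in ctrl and 3193, 4889 and 4366 in 2hJA, and the groups overlapped. LHCA1 fell by 0.70 ± 0.13 in Set1 (adjusted p = 0.0243) and was not called without Set1_ctrl replicate 2. The minor genes LHCA5 and LHCA6, which have related roles, gave different values. LHCA5 (AT1G45474, chromosome 1, 17179250 to 17180806) had 208 and 221 CPM in Set1_ctrl against 199 and 196 in Set1_2hJA, and 157, 159 and 125 in Set2_ctrl against 107, 149 and 135 in Set2_2hJA, and its fold changes of -0.14 ± 0.16 and -0.18 ± 0.15 did not pass the test (adjusted p = 0.709 and 0.596). LHCA6 (AT1G19150, chromosome 1, 6612630 to 6613972) had 111 and 126 CPM in Set1_ctrl against 83.6 and 77.2 in Set1_2hJA, and 81.3, 96.4 and 68.3 in Set2_ctrl against 41.6, 66.9 and 51.2 in Set2_2hJA. Its groups were apart in both sets and its fold changes were of one size, -0.58 ± 0.17 in Set1 (adjusted p = 0.11) and -0.63 ± 0.18 in Set2 (adjusted p = 0.092).

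Of the photosystem I subunits PSAD2 alone was called in Set1. PSAD is the stromal subunit at which ferredoxin docks, and PSAD2 is 1 of its 2 genes, 88.0% identical in coding sequence to PSAD1. PSAD2 (AT1G03130, chromosome 1, 753307 to 754262) had 1325 and 1118 CPM in Set1_ctrl against 686 and 677.7 in Set1_2hJA, and 522.4, 575.3 and 491.2 in Set2_ctrl against 285.5, 477.4 and 426.6 in Set2_2hJA. The groups were apart in both sets, narrowly so in Set2, with a fall of 0.86 ± 0.16 in Set1 (adjusted p = 0.0277) and a fold change of -0.42 ± 0.18 in Set2 (adjusted p = 0.262). The Set1 call of PSAD2 was lost in 3 of 4 fits with 1 library left out (all but that without Set1_ctrl replicate 2), at fold changes of -0.98 to -0.72, with library totals, by limma and when PSAD1 and PSAD2 were summed. Its copy PSAD1 had -0.50 ± 0.15 (adjusted p = 0.113) and -0.20 ± 0.18 (adjusted p = 0.617). PSAO (AT1G08380, chromosome 1, 2640803 to 2641934) had 3600 and 2844 CPM in Set1_ctrl and 2649 and 2505 in Set1_2hJA, then 1751, 1568 and 1274 in Set2_ctrl and 1206, 1824 and 1458 in Set2_2hJA. Its groups overlapped in Set2, and the fold changes of -0.34 ± 0.17 and -0.04 ± 0.19 did not pass the test (adjusted p = 0.319 and 0.947). The other 10 photosystem I genes had Set1 fold changes from -0.60 (PSAL) to -0.12 (PSAN), and PSAN was 1 of the 2 members whose Set1 groups overlapped.

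No photosystem II subunit gene was called in Set1. PSBY (AT1G67740, chromosome 1, 25394031 to 25395249), a small membrane subunit, came closest with 1445 and 1340 CPM in ctrl and 870 and 931 in 2hJA, a fold change of -0.65 ± 0.16 (adjusted p = 0.058). In Set2 PSBY had 813, 755 and 686 CPM in ctrl and 523, 710 and 699 in 2hJA, and the groups overlapped. PSBR (AT1G79040, chromosome 1, 29735952 to 29737009) had 4007 and 3672 CPM in Set1_ctrl against 3237 and 3118 in Set1_2hJA, a fold change of -0.29 ± 0.14 (adjusted p = 0.306), and in Set2 2086, 2115 and 1623 against 1329, 1990 and 1550. PSBQ2 (AT4G05180, chromosome 4, 2671523 to 2673243), a gene of the oxygen-evolving complex, was at 2314 and 2106 CPM in Set1_ctrl and 2123 and 2429 in Set1_2hJA, the other case of overlap, with a fold change of 0.02 ± 0.15 (adjusted p = 0.962). In Set2 PSBQ2 had 1341, 1186 and 891.5 CPM in ctrl and 868.4, 1252 and 1070 in 2hJA. PSBS, the sensor protein of energy-dependent quenching, had fold changes of -0.39 ± 0.15 and -0.25 ± 0.21, neither of which passed the test (adjusted p = 0.207 and 0.581).

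In Set2, 0 of the 44 genes were called in either direction, against 2.57% of all 19259 genes called lower and 3.18% higher. The fold changes were below 0 for 43 of 44 genes, 3 of them at an unadjusted p under 0.05, with a median of -0.20. Over all 19259 genes 48.3% were below 0, 1863 genes were below 0 at that p, and the median was 0.01. DESeq2 called 2 members lower (LHCA6 and LHCB4.2), against 3.32% of all genes. Same-numbered Set2 libraries deviated together. With the replicate number as a block 1 member was called, LHCA6 (-0.64, adjusted p = 0.0188), against 3.94% of all genes lower. Every 2hJA library lay below every ctrl library for LHCB4.2, LHCA6 and PSAD2, 3 of 44 genes, against 12.1% of all genes. The values rested largely on replicate 1. Between libraries of the same replicate number the median log2 ratio of the 44 genes was -0.63 in replicate 1 with 43 genes below 0, -0.06 in replicate 2 with 31 below 0, and 0.09 in replicate 3 with 11 below 0. In Set1, paired by the numbers in the sample titles, the medians were -0.45 and -0.52, with 43 and 41 genes below 0. The deposited tables of the Set1_ctrl libraries carry the opposite numbers from the titles, so the Set1 pairs are uncertain. The 11 genes below 0 in replicate 3 were below 0 in all 3 Set2 replicates. They were LHCB1.5, LHCB2.1, LHCB2.2, LHCB2.3, LHCB4.2, LHCB4.3, LHCA6, PSAD2, PSAH2, PSBO2 and PSBR, as with LHCB4.2 at -1.44, -0.51 and -0.31. How many of all genes did so was not counted. Without Set2_2hJA replicate 1, the library with 2.61% plastid counts, the Set2 median was -0.06 with 33 genes below 0. In that fit 0 of the 44 were called, against 1.23% of all genes lower and 2.24% higher. The part of that library's composition in the lower values was not tested.

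**Figure D4:**
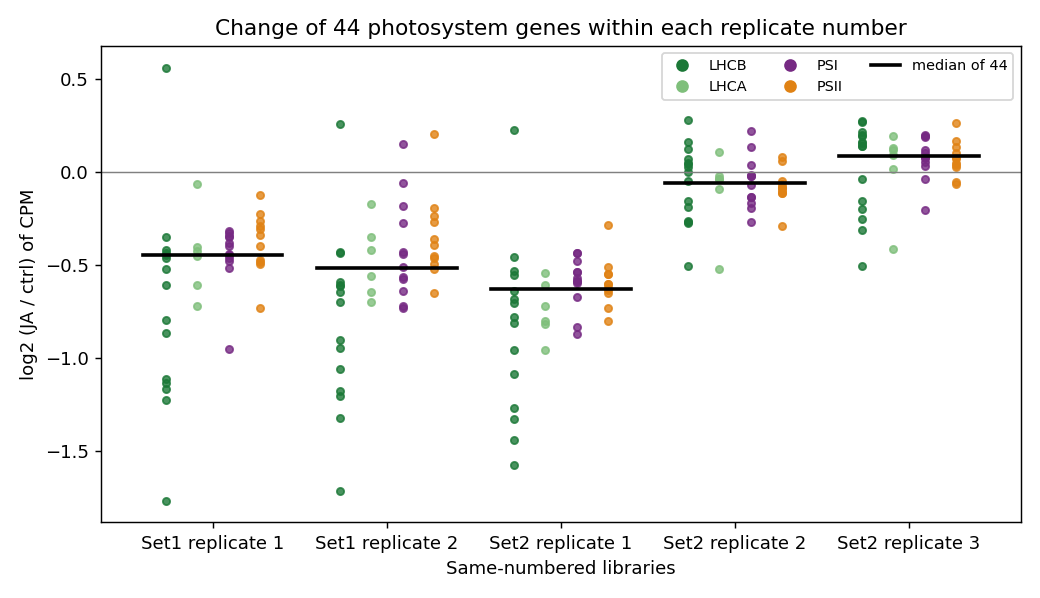
Log2 ratio of CPM, 2hJA over ctrl (vertical axis), between libraries of the same set and replicate number, 1 point per gene coloured by subgroup, with lines at the median of the 44 genes. The medians are -0.45 and -0.52 in Set1, and -0.63, -0.06 and 0.09 in Set2.

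Fitted over all 10 libraries with the set as a term, 6 of the 44 genes were called lower and 0 higher, against 6.67% lower and 6.93% higher over all 20213 genes. These were LHCB4.2 (-0.90 ± 0.19, adjusted p = 0.00696), LHCA6 (-0.60 ± 0.13, adjusted p = 0.0101), LHCB2.2 (-0.82 ± 0.20, adjusted p = 0.0173), LHCB2.1 (-0.78 ± 0.19, adjusted p = 0.018), PSAD2 (-0.59 ± 0.15, adjusted p = 0.02) and LHCB2.3 (-1.06 ± 0.28, adjusted p = 0.0227). LHCB2.3 was the 1 gene with a fall of at least 2-fold, where 1.4% of all genes had one. The same 6 genes were called without Set2_2hJA replicate 1, against 5.96% of all genes lower. Only 3 members were called without Set1_ctrl replicate 2, against 4.47% of all genes lower. Without Set1_2hJA replicate 1 or 2, LHCB4.2 and LHCA6 were called, 2 members each time, against 3.93% and 4.1% of all genes lower. With the replicate number as a block 8 were called, against 7.38% of all genes lower, LHCB1.5 (-0.57, adjusted p = 0.0458) and LHCB4.3 being added.

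Whether the response differed between the sets was tested as the set by treatment interaction. No member passed, and 0% of all 20213 genes did. The interaction estimates, Set2 minus Set1, were above 0 for 39 of 44 genes with a median of 0.30, and 3 were at an unadjusted p under 0.05: LHCB1.1 at 0.76 ± 0.30, LHCB1.4 at 0.88 ± 0.37 and LHCB2.3 at 1.13 ± 0.46 (adjusted p = 0.628, 0.647 and 0.634). Over all genes 763 were below 0 and 675 above 0 at that unadjusted p. DESeq2 and limma also called 0 members. A smaller response in Set2 was therefore not shown.

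The ctrl seedlings of the sets also differed in these genes. In Set2_ctrl relative to Set1_ctrl 38 of the 44 genes were called lower and 0 higher, against 10.5% lower and 8.97% higher over all genes. By at least 2-fold 19 of the 44 were lower, as were 695 of all 20213 genes. The largest difference was in LHCB1.4, 5.14-fold lower at -2.36 ± 0.26 on the log2 scale (adjusted p = 0.000286). The other LHCB1 genes ran from -0.95 ± 0.21 in LHCB1.1 (adjusted p = 0.0108) to -1.41 ± 0.24 in LHCB1.5 (adjusted p = 0.00283). LHCB1.4 shares stretches with LHCB1.5, so the split of counts between them is uncertain. All 12 photosystem I genes were called, with 13 of 15 LHCB, 4 of 6 LHCA and 9 of 11 photosystem II genes. The exceptions were LHCB4.3 (0.77 ± 0.29, adjusted p = 0.0868), LHCB7 (-0.10 ± 0.22, adjusted p = 0.788), LHCA3, LHCA6, PSBQ1 and PSBS. With library totals in place of TMM factors 19 were called lower and 1 higher, against 2.39% lower and 27.2% higher of all genes. By limma on log2(TPM + 1) 5 were called lower and 1 higher, against 1.32% and 38.5% of all genes. The median of the members relative to that of all genes was -0.94, -0.96 and -0.84 under these scalings, where the median of all genes itself was 0.01, 0.47 and 0.59. Transcript length moved with this comparison: the median over all genes was -0.34 for transcripts under 900 bases and 0.26 for those over 2200 bases, and the members had a median length of 1168 bases against 1641 for all genes tested. In the length classes under 900, 900 to 1200 and 1200 to 1600 bases the members had medians of -1.07, -0.92 and -0.91. All genes there had -0.34, -0.24 and -0.09, and other genes with a mean log2 CPM of at least 8 had -0.42, -0.40 and -0.27. The part of length in the lower values was not tested. Experiment, sequencing depth, plastid share, ribosomal RNA share and growth cannot be told apart in this comparison.

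Genes that work with the photosystems are given by list, and differences between lists were not tested. The lists were chosen with earlier results of these data known. Of 4 transcriptional regulators of chloroplast genes, Set1 had 2 called lower, Set2 had 1 and both sets fitted together had 3. GLK2, which activates antenna and chlorophyll synthesis genes, fell by 2.105 ± 0.218 in Set1 (adjusted p = 0.00245), with 142 and 189 CPM in ctrl and 35.2 and 42.8 in 2hJA. In Set2 GLK2 had 147, 127 and 112 CPM in ctrl against 56.8, 97.4 and 89.8 in 2hJA, so the groups were apart there as well, with a fold change of -0.67 ± 0.19 (adjusted p = 0.0887). Its paralogue GLK1 had 0.26 ± 0.26 and 0.11 ± 0.21 (adjusted p = 0.661 and 0.837), and CGA1, a GATA factor, fell by 1.54 ± 0.31 in Set2 (adjusted p = 0.0213). Of 14 nuclear genes of electron transport and ATP synthase, 0 were called in Set1 and in Set2, where 6 and 4 were at an unadjusted p under 0.05. In the combined fit FD1, a leaf ferredoxin, fell by 0.80 ± 0.15 (adjusted p = 0.00429) and PGR5 by 0.45 ± 0.13 (adjusted p = 0.0388), and FNR2, a ferredoxin-NADP reductase, rose by 0.53 ± 0.12 (adjusted p = 0.0131). Of 8 genes of LHC-like proteins, SEP2 (-1.04 ± 0.17, adjusted p = 0.0153) and OHP1 (-0.78 ± 0.17, adjusted p = 0.0471) were lower in Set1 and none in Set2. Of 5 genes of antenna targeting and insertion, CPSRP43, which carries LHC proteins through the stroma, fell by 0.83 ± 0.19 in Set1 (adjusted p = 0.0485), and the list had no call in Set2.

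Markers of green tissue moved in the same direction as the members. The summed level of 4 leaf genes (RBCS1A, RCA, CA1 and GLDP1) was 31440 to 33670 CPM in Set1_ctrl and 22620 to 22820 in Set1_2hJA, and 23790 to 27610 in Set2_ctrl and 16080 to 22810 in Set2_2hJA. All 4 had fold changes below 0 in both sets, RCA (Rubisco activase) being called in Set1 (-0.92 ± 0.13, adjusted p = 0.00949) and none in Set2. In the combined fit 3 of the 4 were called lower, RCA (-0.71 ± 0.14, adjusted p = 0.00438), GLDP1 (-0.73 ± 0.16, adjusted p = 0.00989) and CA1 (-0.57 ± 0.14, adjusted p = 0.0168). Their median was -0.67 in Set1 and -0.60 in Set2, against -0.51 and -0.20 for the 44 members. In Set2_ctrl relative to Set1_ctrl the median of the 4 leaf genes was -0.05, against -0.94 for the members. There 0 of the 4 were called, against 10.5% of all genes lower and 8.97% higher. Of 10 root genes, 8 were below 0 in Set1 and 3 of the 9 tested in Set2. The summed level of these 9 was 75.8 to 101 CPM in Set1_ctrl, 48.8 to 79.1 in Set1_2hJA, 57.1 to 69.0 in Set2_ctrl and 59.1 to 93.7 in Set2_2hJA, and none of them was at 0 in any library. The only root gene called was NRT2.1, a nitrate transporter that was higher in both sets. The part of tissue composition in the lower antenna values was not tested. The 7 plastid-encoded photosystem genes summed to 300.7 to 5022 CPM in Set1_ctrl and 166 to 4192 in Set1_2hJA, and to 88.8 to 359 in Set2_ctrl and 64.5 to 2507 in Set2_2hJA. In Set1 the replicates of a group differed by more than ctrl and 2hJA did, and in Set2 the high value was that of 2hJA replicate 1. In each set 0 of 7 were called, and 0 of 7 were at an unadjusted p under 0.05.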

How the data were processed

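RNA had been extracted from whole seedlings and libraries made with a TruSeq Stranded mRNA kit. Per the labels and their processing notes, the authors used STAR 2.7.5a, RSEM 1.3.3, TAIR10 and edgeR 3.36.0. The deposited tables give RSEM expected counts and TPM per gene for each library. In RSEM reads that fit several genes are divided among them, which limits near copies. Tables of the authors' own edgeR comparisons (fold changes and p-values) were not used. The replicates are those of the labels. The 44 members, the gene lists and the motifs were chosen with earlier results of these data known.

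Expected counts were rounded, filtered by group (filterByExpr), scaled by TMM and tested over all genes with edgeR 4.0.16 (quasi-likelihood F test, R 4.3.3) and Benjamini-Hochberg adjustment, in each set alone, over both sets with the set as a term, as a set by treatment interaction, and between the ctrl groups in a fit with 4 group means. Library totals set the precision. Standard errors (SE) of the edgeR fits are the absolute log2 fold change divided by the square root of the F statistic. CPM rest on TMM-scaled totals of all 10 libraries. Within-number log2 ratios were taken after adding 0.5 CPM. Alternatives were library totals, nuclear genes only, DESeq2 1.42.0, no filter on low counts, limma 3.58.1 on log2(TPM + 1), near copies summed, the replicate number as a block, and each library left out. The fits were also run on simulated libraries drawn from a common profile with no replicate pairing. The outcome is not given here and does not bear on effects of pairing or library composition.

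Same-numbered ctrl and 2hJA libraries deviated together from their group means, with correlations over genes of 0.206, 0.217 and 0.259 in Set2, so the numbers were taken to pair those samples. In Set1 the 2 pairs give a single value, 0.461 by the titles' numbers, which were followed, and -0.461 by those of the deposited tables, where the ctrl replicates are numbered the other way round. Members given in full were, in each subgroup, the gene with the highest mean TPM and those with the highest and the lowest combined fold change, any called in both sets in the same direction and any with an interaction call. There was none of the last kinds. Lists are given by counts and median, with values for their highest and lowest genes, and other list genes were named after their values were seen. RefSeq (TAIR10.1) gave positions, overlaps and sequences. It lists 32548 of 32833 genes, and 99.3% of 21304 single-transcript genes had the length given in the deposited tables.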

Additional observations from a re-analysis of the deposited data

How the results depend on the processing

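Shares in brackets are those of all genes called in the same direction. In Set1 the number of members called lower, 13 (2.96%), was 2 with library totals (1.03%), 22 by DESeq2 (3.83%) and 1 by limma on log2(TPM + 1) (0.841%). It was 6 for the 33 family sums (2.92%) and 5 with a fold change of at least 2 (2.2%). The median was -0.40 with library totals and -0.31 by limma. Leaving out 1 library gave 8 to 11 calls in Set1, 8 without Set1_ctrl replicate 2 or Set1_2hJA replicate 2, and medians from -0.51 to -0.45. LHCB1.1, LHCB1.4, LHCB1.5, LHCB2.1, LHCB2.2, LHCB2.3 and LHCB4.2 were called each time. In Set2 the count of 0 (2.57%) became 2 by DESeq2 (3.32%), and 0 to 1 with 1 library left out (0.706% to 1.93%). The combined count of 6 (6.67%) became 16 by DESeq2 (7.8%) and 3 for the 33 family sums (6.67%). It was 1 at 2-fold (1.4%) and 2 to 10 with 1 library left out (3.93% to 6.88%). In the comparison of the ctrl groups the 38 lower became 19 with library totals and 5 by limma, the higher count 1 with library totals, by DESeq2 and by limma, and the median -0.49 and -0.25. Leaving out 1 Set2 library gave 28 to 40 lower (6.38% to 11.3%) and 0 to 1 higher (5.86% to 9.57%). With 1 Set1 library left out the medians ran from -1.04 to -0.93. The cause of these shifts was not tested. The interaction count was 0 under every alternative.

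With the replicate number as a block, 31 members were called in Set1 (6.69% of all genes lower) with a median of -0.51. In Set2 the block gave 1 call (3.94% of all genes lower). In Set1 same-numbered libraries by the titles also had alike ribosomal RNA shares. These were 11.6% and 8.98% of counts in replicate 1 and 1.32% and 0.653% in replicate 2. The ctrl numbers of the titles and of the deposited tables are opposite, so the 31 rests on the titles. The block added LHCA6 (adjusted p = 0.0226) and PSBY (adjusted p = 0.00483) there, among others. Beside the counts and the genes named here and in the report, it changed no call of a gene given in full.

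Some signs turned. In Set1 LHCA5 was at 0.067 by limma, in the combined fit PSBQ2 at 0.007 with library totals and 0.023 by limma, and between the ctrl groups LHCB7 at 0.34 with library totals and 0.54 by limma. LHCA5, called lower there at -0.55, was at 0.14 and LHCA6, at -0.53 and not called, was at 0.15 by limma. With 1 library left out the values ran from -0.078 to 0.153 for PSBQ2 in Set1, from -0.117 to 0.038 for PSBQ2 in the combined fit and from -0.231 to 0.057 for LHCB7 between the ctrl groups. In Set2 they ran from -0.179 to 0.047 for LHCB1.3, -0.206 to 0.089 for PSAO, -0.25 to 0.034 for PSBQ2, -0.359 to 0.034 for LHCB1.4, -0.282 to 0.016 for LHCB1.1 and -0.299 to 0.063 for LHCB1.2. Of the single genes' values in the alternatives other than left-out libraries, 349 kept both sign and call status. With the sign unchanged, 41 lost a call and 17 gained one, and 7 changed sign. With 2 libraries a group in Set1 and shallower libraries in Set2, small differences could not be resolved.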
